A study of Mus musculus with 42 samples.

Results

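The genes described here encode 7 ion and water channels, or channel subunits, of the muscle fiber membrane: Aqp4, Kcng4, Lrrc38, Scn4a, Clcn1, Kcna7 and Kcnn3. They were selected by name from the 13809 genes of the deposited table, and all 7 were found and passed the filter on low values in both sets. Aqp4, Kcng4 and Lrrc38 were selected on these data, because they were among the genes that fell furthest on immobilization, so their immobilization values are a description and carry no test. Every other comparison shares libraries with those immobilizations, so the values of these 3 genes are given there without a test as well, and only Scn4a, Clcn1, Kcna7 and Kcnn3 were counted as called or not. The expression of each was compared in TA (tibialis anterior, a fast muscle of the lower hindlimb) across 42 RNAseq libraries from male C57BL/6J mice aged 4 months.

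The libraries form 11 groups in 2 sets. Set 1 held 4 basal and 3 immobilized libraries of WT mice, 4 and 3 of Sesn1SkM-Tg mice, and 4 and 4 of Sesn2SkM-Tg mice. Set 2 held 4 basal, 4 immobilized and 4 denervated libraries of WT mice, and 4 basal and 4 immobilized libraries of Sesn1KO mice. By the methods of the study, Sesn1SkM-Tg mice carry human Sesn1 under the muscle creatine kinase (MCK) promoter and Sesn2SkM-Tg mice carry human Sesn2 under a tetracycline-regulated promoter driven by an MCK-tTA transgene. Sesn1KO mice are labelled as Sesn1 knockouts. In immobilized mice the right hindlimb was fixed, in denervated mice a stretch of the sciatic nerve was cut out, and muscles were taken after 3 days. The transgenes are thus driven in muscle. The labels do not say which animal each library came from, so the tests measure the spread between libraries.

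A muscle fiber contracts after an action potential runs along its membrane. The sodium channel encoded by Scn4a carries the upstroke, potassium channels repolarize the membrane, and the chloride channel encoded by Clcn1 holds the resting potential steady, so that its loss causes myotonia. Aqp4 is the water channel of fast fibers. Fibers that lose their nerve are known to change their excitability and to acquire the small-conductance calcium-activated potassium channel encoded by Kcnn3.

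The 300 bases around the transcription start are shown for 4 of the genes, because they span the responses described below: Kcng4 and Lrrc38 with the lowest values relative to basal muscle after denervation, Clcn1 with an intermediate fall and Kcnn3 with a rise. They are RefSeq windows of the GRCm38.p6 assembly, from 250 bases before to 50 bases after the start, written 5′ to 3′ on the gene's strand. Kcng4 lies at chr8:119635631-119635930 on the minus strand, Lrrc38 at chr4:143349500-143349799 on the plus strand, Clcn1 at chr6:42286435-42286734 on the plus strand and Kcnn3 at chr3:89519914-89520213 on the plus strand. Capitals mark a match, on either strand, to an E-box (CANNTG, bound by myogenic basic helix-loop-helix factors), a MEF2 site, a CArG box, a forkhead site (GTAAACA) or a TATA box (TATAAA).
Kcng4: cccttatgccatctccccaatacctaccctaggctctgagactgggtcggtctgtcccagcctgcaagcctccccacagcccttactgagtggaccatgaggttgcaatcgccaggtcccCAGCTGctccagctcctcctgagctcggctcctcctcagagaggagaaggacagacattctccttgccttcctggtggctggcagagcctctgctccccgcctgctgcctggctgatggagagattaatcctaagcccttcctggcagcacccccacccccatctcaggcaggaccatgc
Lrrc38: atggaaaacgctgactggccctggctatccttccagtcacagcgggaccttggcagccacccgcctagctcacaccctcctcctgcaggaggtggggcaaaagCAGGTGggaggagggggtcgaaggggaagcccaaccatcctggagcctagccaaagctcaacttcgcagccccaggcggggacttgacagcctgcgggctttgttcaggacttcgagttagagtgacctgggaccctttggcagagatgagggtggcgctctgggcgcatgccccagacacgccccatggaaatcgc
Clcn1: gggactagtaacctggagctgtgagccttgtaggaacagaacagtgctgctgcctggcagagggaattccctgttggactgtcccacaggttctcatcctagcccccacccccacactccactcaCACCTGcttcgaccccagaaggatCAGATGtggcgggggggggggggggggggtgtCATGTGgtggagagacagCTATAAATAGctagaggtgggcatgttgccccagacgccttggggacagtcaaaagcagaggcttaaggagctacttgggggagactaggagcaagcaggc
Kcnn3: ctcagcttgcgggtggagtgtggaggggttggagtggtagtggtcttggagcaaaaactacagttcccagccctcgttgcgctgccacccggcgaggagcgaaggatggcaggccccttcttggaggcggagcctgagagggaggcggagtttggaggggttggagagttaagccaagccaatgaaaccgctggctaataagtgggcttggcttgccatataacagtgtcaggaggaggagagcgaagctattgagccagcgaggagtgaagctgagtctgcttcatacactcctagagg

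The Kcng4 window held 1 E-box, of the form CAGCTG, beginning 130 bases before the start, and the Lrrc38 window held 1 E-box. The Clcn1 window held 3 E-boxes and a MEF2 site that begins 51 bases before the start and contains its TATAAA match. The Kcnn3 window held no match to any of the motifs searched. Of the other members, Kcna7 had 3 E-boxes and Scn4a had no match, and Aqp4 was not searched. Among the 32817 windows of this length in the table, 72.3% held an E-box, 16.3% the form CAGCTG, 0.558% a MEF2 site, 1.63% a CArG box, 3.65% a forkhead site and 13.6% TATAAA. A match describes the letters of the window and not the binding of a factor.

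Values are the normalized counts the authors deposited, on a linear scale. They do not give the number of reads behind a value, so counting error could not be told apart from the rest of the spread between libraries. Library values summed to between 722430 and 1276769, and were low in denervated muscle (722430 to 811541, against 1042064 to 1099736 in basal WT muscle of set 2). The fast fiber genes Acta1, Ckm, Myh4, Myh1 and Myh2 together made up between 35966 and 118598 of a library's sum and no marker of any list was at 0. Within set 1, Sesn1 was highest in Sesn1SkM-Tg muscle (23.0 to 77.6, against 12.4 to 22.1 in WT muscle of set 1), and Sesn2 in Sesn2SkM-Tg muscle (6.54 to 14.5, against 1.86 to 3.39). In Sesn1KO muscle Sesn1 was at least 8.41 at the basal state (median 9.05), where each library was below the 22.5 to 29.7 of WT muscle, and 19.4 to 37.3 after immobilization, where it overlapped the WT range of 30.7 to 53.1. Calls required an adjusted p under 0.05 together with a log2 fold change of at least 0.25 in either direction, by limma on log2(value + 1) across all genes of the set, and log2 fold changes below are on that scale.

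To compare levels between genes, values were divided by the exon length of the gene in kilobases. In basal WT muscle of set 2 the order was Kcna7 (112 ± 8.55 per kb, SD, n = 4), Scn4a (73.3 ± 9.17), Clcn1 (41.8 ± 3.27), Kcng4 (23.7 ± 3.83), Lrrc38 (19.7 ± 1.68), Aqp4 (10.9 ± 1.04) and Kcnn3 (0.188 ± 0.0511). Each gene stood clear of the next in every library, except Kcng4 and Lrrc38, whose libraries overlapped. The order of the means was the same in set 1, where Kcna7 (95.3 ± 20.2 per kb) overlapped Scn4a (82.0 ± 9.37), and Lrrc38 (8.42 ± 2.21) overlapped Aqp4 (5.65 ± 1.88). In denervated muscle the order was Scn4a (48.8 ± 7.88 per kb), Kcna7 (13.9 ± 3.10), Clcn1 (11.3 ± 2.81), Kcnn3 (4.69 ± 0.968), Aqp4 (0.742 ± 0.504), Lrrc38 (0.585 ± 0.211) and Kcng4 (0.521 ± 0.176). Kcnn3, the least abundant of the 7 before, then stood above Aqp4, Lrrc38 and Kcng4. The libraries of Kcna7 and Clcn1 overlapped, as did those of Aqp4, Lrrc38 and Kcng4.

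**Figure D1:**
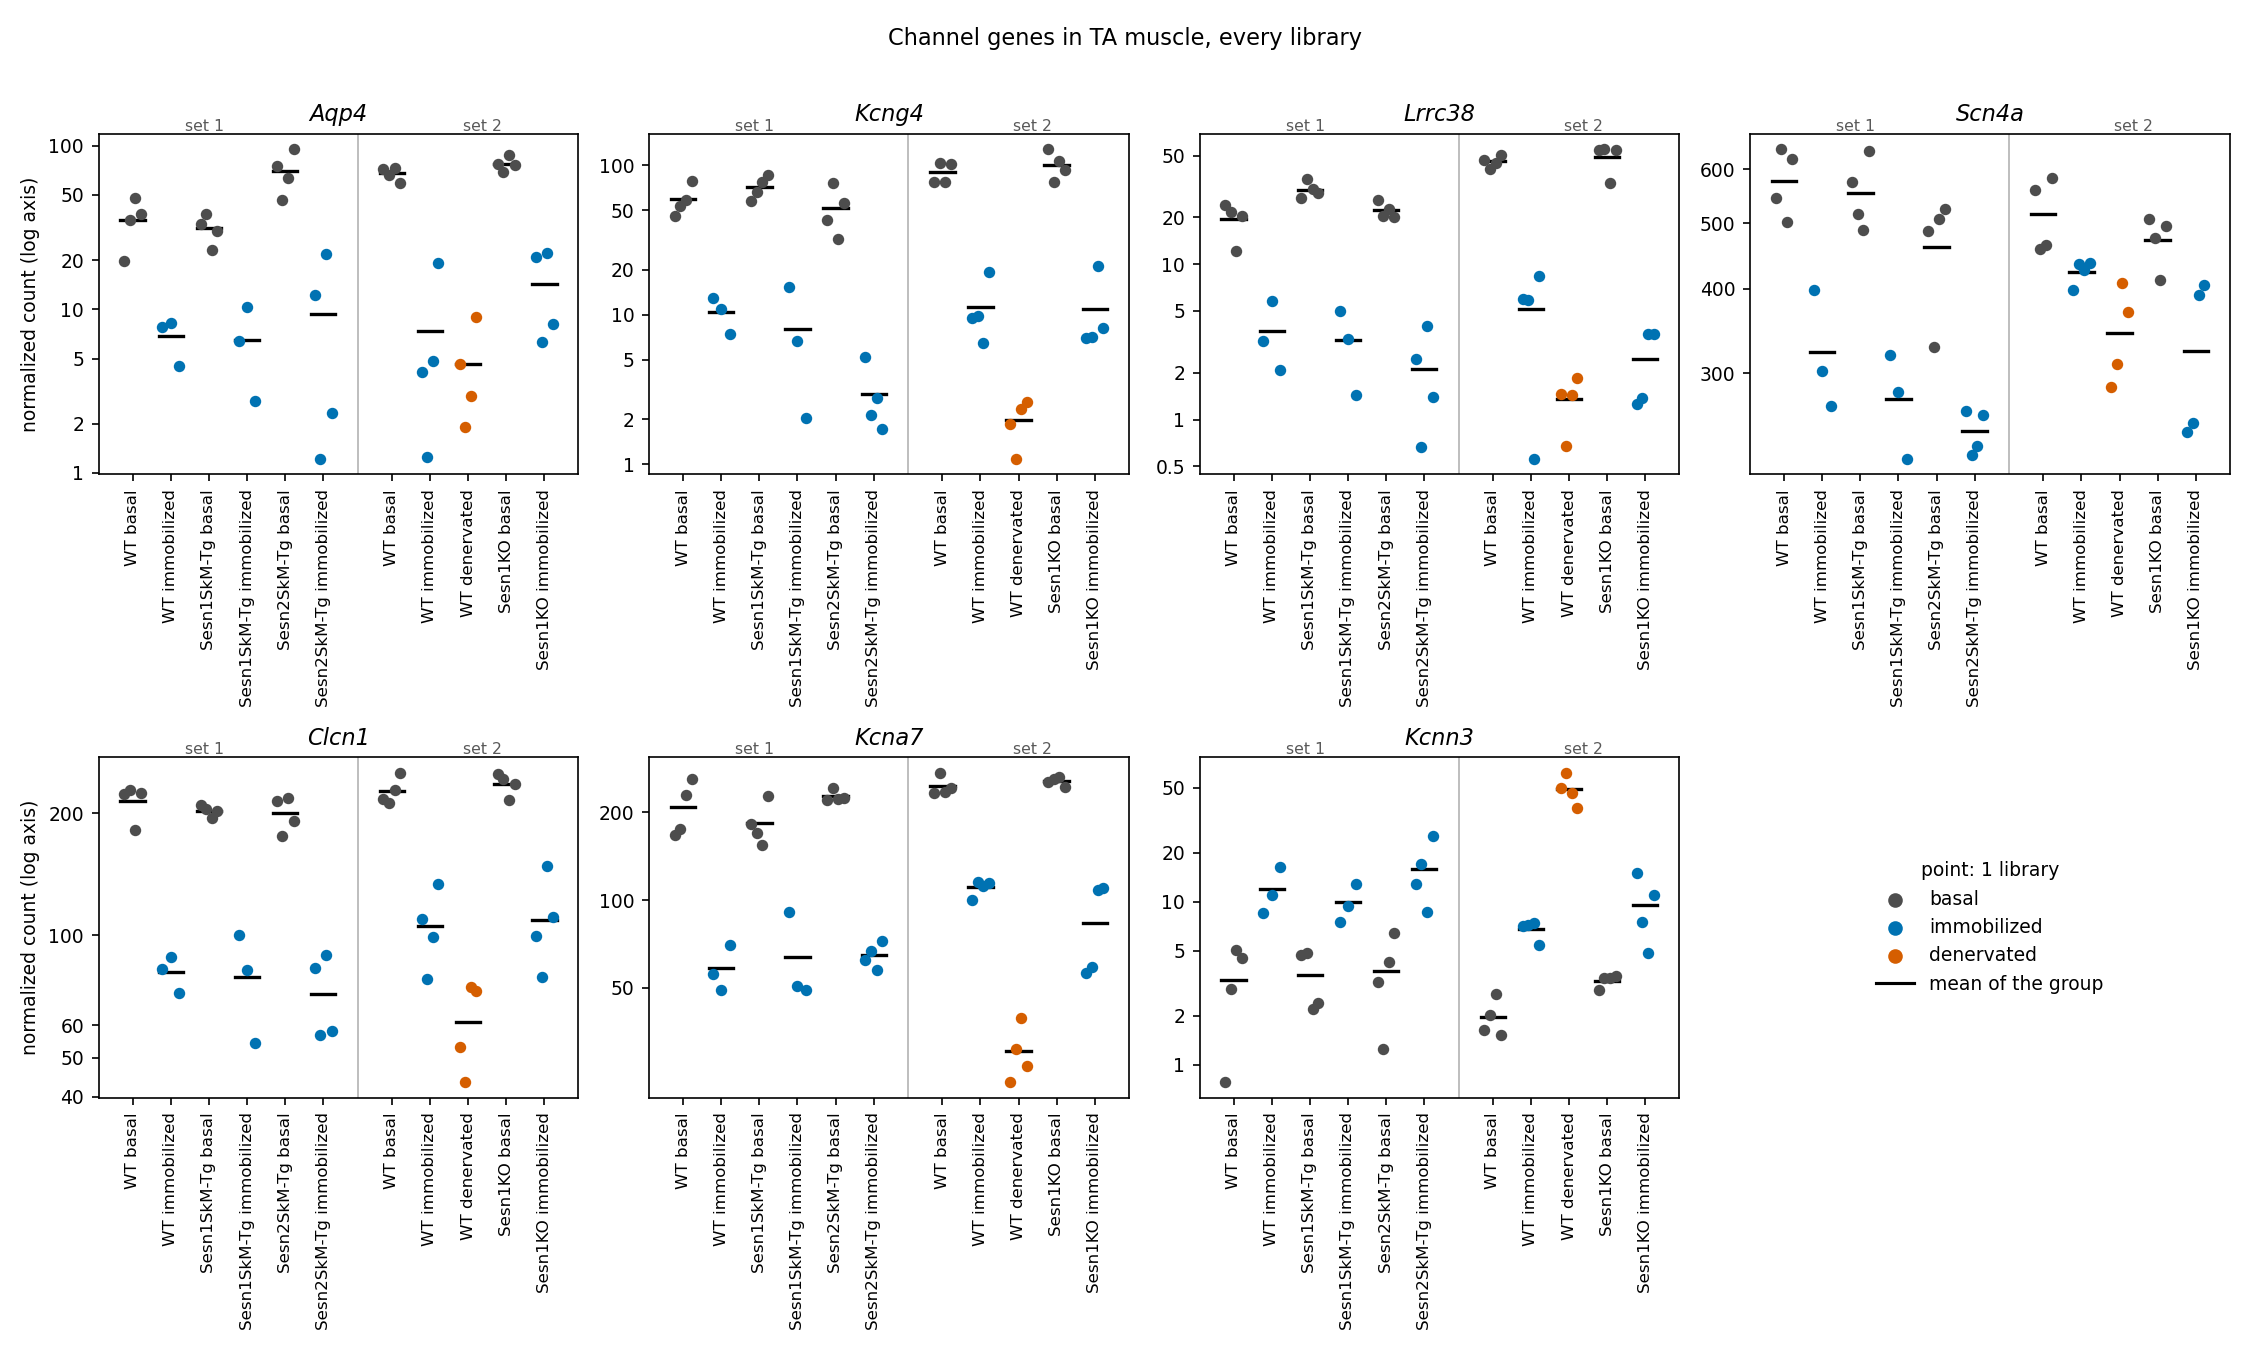
Normalized count of each of the 7 channel genes (log axis) in every library, with 1 point a library and a line at the mean of each group, and with set 1 to the left and set 2 to the right of the vertical line. In denervated WT muscle Kcng4 lies between 1.09 and 2.61 against 77.1 to 103 in basal muscle, while Kcnn3 lies between 37.5 and 61.9 against 1.53 to 2.70.

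Denervation was the condition with the widest changes. All 4 genes tested were called, with Scn4a, Clcn1 and Kcna7 lower and Kcnn3 higher, where 55.5% of all genes tested were called (7567 of 13629). The mean level fell 8.08-fold for Kcna7, 3.71-fold for Clcn1 and 1.503-fold for Scn4a, and rose 24.9-fold for Kcnn3. The comparison shares the basal WT libraries of set 2 with the immobilization that selected Aqp4, Kcng4 and Lrrc38, and the denervation values of Kcng4 were known when the genes were chosen. The means of these genes were 45.5-fold lower for Kcng4, 33.8-fold lower for Lrrc38 and 14.7-fold lower for Aqp4.

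Kcng4 encodes an electrically silent potassium channel subunit, which forms channels only together with other potassium channel subunits. It lies on chromosome 8 (119623854 to 119635680, GRCm38, minus strand; ENSMUSG00000045246). Its values were 78.1, 103, 77.1 and 102 in basal WT muscle of set 2, and 1.87, 1.09, 2.36 and 2.61 in the denervated ones. The groups were far apart, and the log2 fold change of -4.95 (SE 0.29) was the lowest of all 13629 genes with a pseudocount of 1. Over the alternatives, which include other pseudocounts, the log2 fold change ran from -5.49 to -3.76.

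Lrrc38 encodes an auxiliary subunit that lets the large-conductance calcium-activated potassium channel open at lower voltage. It lies on chromosome 4 (143349757 to 143371032, plus strand; ENSMUSG00000028584). Its values were 47.1, 41.2, 44.7 and 50.5 in basal and 1.47, 0.680, 1.44 and 1.85 in denervated libraries. No denervated library reached 2, and the log2 fold change was -4.33 (SE 0.38). The pore subunit of that channel, Kcnma1, had means of 12.8 and 9.65 and was not called (log2 fold change -0.40, adjusted p = 0.0870).

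Aqp4, on chromosome 18 (15389496 to 15410982, minus strand; ENSMUSG00000024411), had values of 72.5, 66.5, 73.3 and 59.3 in basal and of 4.62, 1.90, 2.95 and 9.02 in denervated libraries. All denervated libraries were below all basal ones, with a log2 fold change of -3.77 (SE 0.47), and the denervated libraries differed among themselves by more in proportion than the basal ones.

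Kcna7 encodes a voltage-gated potassium channel of skeletal muscle and heart. It lies on chromosome 7 (45405653 to 45409763, plus strand; ENSMUSG00000038201), and its values were 233, 273, 234 and 241 in basal and 23.8, 31.0, 39.5 and 27.1 in denervated libraries. The log2 fold change was -2.99 (SE 0.18, adjusted p = 1.41e-11), with an SD of 7.61% of the mean in basal and 22.3% in denervated libraries. Clcn1, on chromosome 6 (42286685 to 42315756, plus strand; ENSMUSG00000029862), had values of 217, 212, 228 and 252 in basal and of 53.2, 43.5, 74.6 and 73.0 in denervated libraries, a log2 fold change of -1.91 (SE 0.18, adjusted p = 1.22e-08). An exon of Fam131b overlaps Clcn1 on the opposite strand, and without strand their reads cannot be told apart there.

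Scn4a, on chromosome 11 (106318592 to 106353288, minus strand; ENSMUSG00000001027), changed least. Its values were 560, 458, 464 and 583 in basal and 287, 310, 408 and 370 in denervated libraries, which did not overlap (log2 fold change -0.59, SE 0.15, adjusted p = 0.00175). With every library rescaled to the same sum, the log2 fold change of Scn4a on denervation was -0.13 (adjusted p = 0.444) and it was no longer called. That rescaling moved the median of all genes by 0.43 on the log2 scale on denervation, and by 0.10 to 0.31 on immobilization. Of all genes called on denervation, 50.1% were higher with the deposited scaling and 77.1% with the rescaled one, and for the immobilization comparisons these shares were 46.4% to 52.3% and 60.1% to 84.7%.

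Kcnn3 was the member that rose. It lies on chromosome 3 (89520164 to 89675132, plus strand; ENSMUSG00000000794), and its values were 1.62, 2.01, 2.70 and 1.53 in basal and 50.2, 61.9, 46.6 and 37.5 in denervated libraries. Even the lowest denervated library was far above the highest basal one, and the log2 fold change was 4.07 (SE 0.22, adjusted p = 5.82e-12). The other small-conductance channel genes did not rise with it: Kcnn2 fell from a mean of 8.12 to 0.268 (log2 fold change -2.83, adjusted p = 2.79e-09), and Kcnn1 fell as well.

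Several marker lists moved with denervation. All 5 fast fiber genes were called lower, and their summed level was 35966 to 47893 in denervated against 95757 to 105940 in basal libraries. The endothelial list (4 of 4 called lower, summed level 107 to 136 against 216 to 273) and the smooth muscle and pericyte list (4 of 4 lower, 204 to 259 against 384 to 614) fell too, as did 3 of 4 fibroblast and 3 of 3 adipocyte markers. Of the satellite cell markers, 1 of 3 was called higher. This was Cdh15 (median 53.6 against 16.2), which makes up most of their summed level of 47.6 to 64.4 against 18.1 to 23.9, while Pax7 (median 1.77 against 2.72) and Myf5 (1.21 against 1.25) were not called. Also called higher were 1 of 4 macrophage and leukocyte markers (24.3 to 63.1 against 7.69 to 37.1) and 1 of 4 slow fiber markers (8.21 to 23.2 against 5.28 to 8.97). The part of these changes in the channel values was not tested. In whole muscle, fewer cells of a type and less RNA per cell cannot be told apart.

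On immobilization Kcnn3 was higher and the mean of each of the other genes lower, in every genotype. Of the 4 genes tested, all were called in WT muscle of set 1 (29.3% of all genes called), in Sesn1SkM-Tg muscle (34.7%), in Sesn2SkM-Tg muscle (30.7%) and in Sesn1KO muscle (37.1%), and 3 in WT muscle of set 2 (33.9%), where Scn4a was not.

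Aqp4 had values of 4.14, 1.26, 4.85 and 19.3 in the immobilized WT libraries of set 2, with replicate 4 far above the others and still below the lowest basal library (59.3). In set 1 its values were 19.7, 35.2, 47.9 and 38.2 in basal and 7.81, 8.22 and 4.52 in immobilized WT libraries. The mean was lower 9.20-fold in set 2 and 5.15-fold in set 1, with log2 fold changes of -3.49 (SE 0.47) and -2.18 (SE 0.55). Of all genes, it ranked 1 from the lowest in set 2 and 30 in set 1.

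Kcng4 had values of 9.57, 9.88, 6.45 and 19.3 in the immobilized WT libraries of set 2, the highest again in replicate 4. In set 1 it had 46.0, 53.6, 58.7 and 79.1 in basal and 13.1, 10.98 and 7.43 in immobilized WT libraries. The groups did not overlap in either set, and the log2 fold changes were -2.98 (SE 0.29, rank 3 from the lowest) and -2.40 (SE 0.39, rank 18). Lrrc38 had values of 5.93, 5.89, 0.559 and 8.36 in the immobilized WT libraries of set 2, and of 24.1, 21.6, 12.2 and 20.4 in basal and 3.20, 5.84 and 2.09 in immobilized WT libraries of set 1. Its groups did not overlap either, with log2 fold changes of -3.19 (SE 0.38, rank 2) and -2.17 (SE 0.33, rank 33). Across the transgenic and knockout muscles the log2 fold changes were -2.22 to -3.32 for Aqp4, -3.23 to -3.74 for Kcng4 and -2.96 to -3.92 for Lrrc38, and the ranks from the lowest were between 1 and 24.

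Kcna7 had values of 168, 175, 229 and 260 in basal and 55.7, 49.0 and 70.4 in immobilized WT libraries of set 1, and of 99.8, 116, 111 and 114 in the immobilized WT libraries of set 2. It fell in both sets, by 1.81 on the log2 scale in set 1 (SE 0.19, adjusted p = 5.43e-06) and by 1.14 in set 2 (SE 0.18, adjusted p = 4.03e-05). Clcn1 had values of 223, 229, 182 and 225 in basal and 82.6, 88.4 and 72.2 in immobilized WT libraries of set 1, and of 110, 78.1, 99.0 and 134 in the immobilized WT libraries of set 2. It fell by 1.39 in set 1 (SE 0.18, adjusted p = 2.54e-05) and by 1.12 in set 2 (SE 0.18, adjusted p = 5.45e-05). In the transgenic and knockout muscles Kcna7 fell by 1.56 to 1.79 and Clcn1 by 1.13 to 1.49, and each basal library was above each immobilized one of its genotype.

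Scn4a had values of 544, 642, 501 and 622 in basal and 398, 302 and 269 in immobilized WT libraries of set 1, a fall of 0.85 on the log2 scale (SE 0.17, adjusted p = 0.00117). In set 2 the immobilized WT libraries stood at 398, 435, 426 and 436, below all of the basal ones, but the log2 fold change of -0.28 (SE 0.15, adjusted p = 0.155) was not called. In a fit of these 2 groups alone it passed the threshold (adjusted p = 0.0353). Scn4a fell by 1.02 in Sesn1SkM-Tg (adjusted p = 0.000210), by 0.88 in Sesn2SkM-Tg (adjusted p = 0.000276) and by 0.58 in Sesn1KO muscle (adjusted p = 0.00369).

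Kcnn3 had values of 0.782, 2.92, 5.08 and 4.55 in basal and 8.49, 11.003 and 16.3 in immobilized WT libraries of set 1, and of 7.10, 7.18, 7.44 and 5.43 in the immobilized WT libraries of set 2. It rose by 1.68 on the log2 scale in set 1 (SE 0.41, adjusted p = 0.00498) and by 1.40 in set 2 (SE 0.22, adjusted p = 5.72e-05), without overlap. The rise was 1.85 in Sesn2SkM-Tg (adjusted p = 0.000999) and 1.21 in Sesn1KO muscle (adjusted p = 0.000212). In Sesn1SkM-Tg muscle, with values of 4.71, 4.87, 2.19 and 2.38 in basal and 7.53, 9.37 and 12.9 in immobilized libraries, it was 1.30 (SE 0.41, adjusted p = 0.0192). The call in Sesn1SkM-Tg muscle was lost without basal replicate 3 (adjusted p = 0.0548), without basal replicate 4 (0.0526) or without immobilized replicate 3 (0.101).

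**Figure D2:**
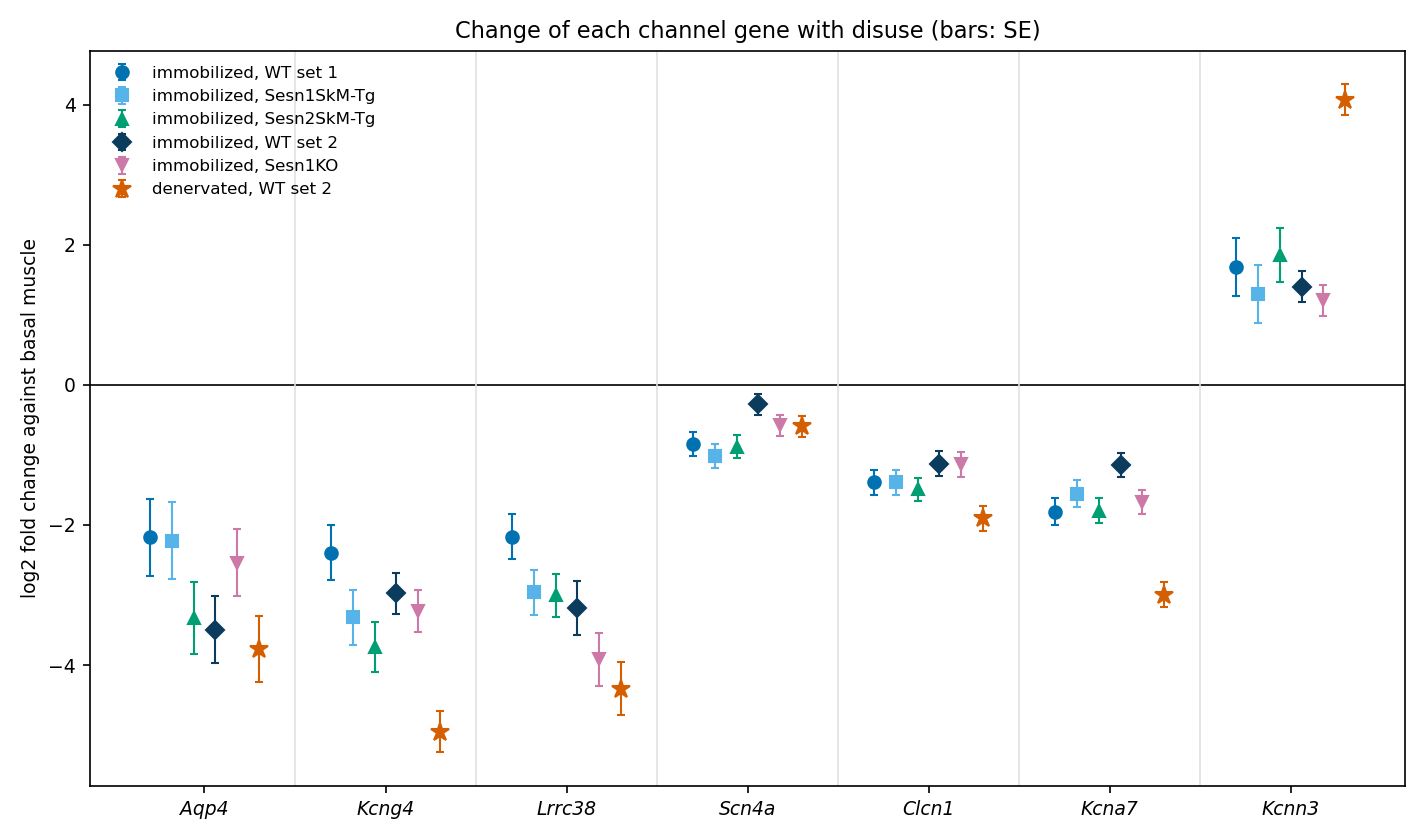
Log2 fold change against basal muscle (vertical axis) of each of the 7 channel genes (horizontal axis) in the 5 immobilization comparisons and in denervation, with bars of 1 SE. In all 6 comparisons Kcnn3 lies above 0 and the others below it. Denervation lies furthest from 0 for every gene except Scn4a. For Kcng4, Kcna7, Clcn1 and Kcnn3 (4.95 lower, 2.99 lower, 1.91 lower and 4.07 higher) its bar is clear of the others. For Aqp4 (3.77 lower) and Lrrc38 (4.33 lower) its bar overlaps that of at least 1 immobilization.

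Marker lists moved with immobilization as well. Of the macrophage and leukocyte markers, 4 of 4 were called higher in set 1 (summed level 58.3 to 122 in immobilized against 11.2 to 18.8 in basal WT libraries) and 2 of 4 in set 2 (43.3 to 75.1 against 7.69 to 37.1). The fast fiber genes had a summed level of 54451 to 67650 against 89213 to 108772 in set 1, with 2 of 5 called lower. In set 2 they stood at 92499 to 96438 against 95757 to 105940, with 2 of 5 called higher and 1 lower. Endothelial markers were called lower in set 2 (4 of 4, 114 to 194 against 216 to 273), and so were 3 of 4 smooth muscle and 2 of 3 adipocyte markers, whereas in set 1 fibroblast markers (3 of 4) and smooth muscle markers (2 of 4) were called higher. The endothelial summed level in set 1 was 171 to 209 against 137 to 192. There the median of Pecam1 was higher (79.4 against 46.9) and that of Kdr lower (31.2 against 48.1). Of the slow fiber markers, 2 of 4 were called higher in set 2 (19.7 to 21.9 against 5.28 to 8.97) and 0 in set 1. Of the satellite cell markers, only Cdh15 was called higher, in each set. Schwann cell markers were called higher in set 1 (3 of 4, 23.8 to 52.5 against 8.16 to 19.1) and not in set 2 (0 of 4). Their part in the channel values was not tested.

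A test of the difference in the immobilization effect of WT muscle between the sets, added after the data were seen, gave -0.66 for Kcna7 (SE 0.27, adjusted p = 0.135), -0.57 for Scn4a (SE 0.23, adjusted p = 0.129), -0.27 for Clcn1 (SE 0.26, adjusted p = 0.588) and 0.28 for Kcnn3 (SE 0.49, adjusted p = 0.791). None of the 4 was called, where 6.20% of 13763 genes were, and none was called when any of the 15 WT libraries was left out.

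The direct comparison of denervated with immobilized WT muscle in set 2 asked how the loss of the nerve differs from the loss of movement with the nerve in place. Here 3 of the 4 members tested were called, where 38.9% of all genes were. Kcnn3 was 7.23-fold higher in denervated muscle (log2 fold change 2.67, SE 0.22, adjusted p = 8.42e-09). Kcna7 was 3.63-fold lower (-1.85, SE 0.18, adjusted p = 5.58e-08) and Clcn1 1.72-fold lower (-0.78, SE 0.18, adjusted p = 0.00136). For each of these 3 genes the groups did not overlap. Scn4a was not called (-0.31, SE 0.15, adjusted p = 0.0954), and its log2 fold change turned to 0.03 with libraries rescaled to the same sum. It was called in a fit of the 2 groups alone (adjusted p = 0.0408) and without denervated replicate 3 (adjusted p = 0.0487).

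The immobilized libraries of this comparison are among those by which Aqp4, Kcng4 and Lrrc38 were selected. As a description, the log2 fold change was -1.97 (SE 0.29) for Kcng4, whose groups did not overlap, -1.15 (SE 0.38) for Lrrc38 and -0.27 (SE 0.47) for Aqp4. The immobilized libraries of Lrrc38 reached down to 0.559, below all denervated ones, and the groups of Aqp4 overlapped.

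The genotype comparisons asked whether channel expression differs between each sestrin genotype and the WT of its set. In basal muscle none of the 4 members tested was called in Sesn1SkM-Tg (0.0292% of all genes called), Sesn2SkM-Tg (2.5%) or Sesn1KO muscle (0.147%) against the WT of the set. At an unadjusted p under 0.05 stood Scn4a in Sesn2SkM-Tg (log2 fold change -0.34) and Kcnn3 in Sesn1KO muscle (0.54), and their limma adjusted p were 0.302 and 1.00. Kcnn3 had 2.86, 3.39, 3.39 and 3.50 in the basal Sesn1KO libraries, all above the WT libraries of the set. Aqp4 had 75.0, 46.5, 63.2 and 94.9 in the basal Sesn2SkM-Tg libraries against 19.7 to 47.9 in WT muscle, a log2 fold change of 0.99 (SE 0.51), and the groups overlapped. Lrrc38, also described only, had 26.5 to 35.4 in the basal Sesn1SkM-Tg libraries. All were above the 12.2 to 24.1 of WT muscle, with a log2 fold change of 0.63 (SE 0.30).

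In immobilized muscle none of the 4 members tested was called in Sesn1SkM-Tg (0.0073% of all genes called), Sesn2SkM-Tg (2.94%) or Sesn1KO muscle (0.947%) against WT. At an unadjusted p under 0.05 stood Scn4a in Sesn2SkM-Tg (log2 fold change -0.37, adjusted p = 0.236), and Scn4a (-0.43, adjusted p = 0.175) and Kcna7 (-0.47, adjusted p = 0.216) in Sesn1KO muscle by limma. Kcng4 was selected on its immobilized values, which these comparisons use, so its values are a description. They were 5.20, 2.14, 2.77 and 1.72 in the Sesn2SkM-Tg and 13.1, 10.98 and 7.43 in the WT libraries, which did not overlap. The log2 fold change of Kcng4 was -1.58 (SE 0.39), and -0.96 with a pseudocount of 5. Aqp4 spread from 1.22 to 21.7 in the Sesn2SkM-Tg libraries. In the same comparison the slow fiber list (1 of 4 called higher, Myl2) had a summed level of 14.6 to 72.4 in Sesn2SkM-Tg against 6.20 to 20.001 in WT libraries, and the macrophage and leukocyte list (1 of 4 called lower, Csf1r) one of 48.7 to 144 against 58.3 to 122. The fibroblast list had none of 4 called, with a summed level of 251 to 387 against 487 to 688. The endothelial list had a summed level of 210 to 284 against 171 to 209. The summed fast fiber level overlapped (55457 to 78249 against 54451 to 67650), while its member Myh2 did not (1902 to 3680 against 770 to 1196). Their part in the channel values was not tested.

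In the immobilized Sesn1KO libraries Kcna7 had 56.2, 59.0, 109 and 110, with replicates 1 and 2 below and replicates 3 and 4 within the WT range of 99.8 to 116. Scn4a split between the same replicates, with 246 and 253 in replicates 1 and 2 and 391 and 404 in replicates 3 and 4. Its WT range was 398 to 436, so only replicate 4 lay within it. Without Sesn1KO replicate 4 Scn4a (adjusted p = 0.0367) and Kcna7 (0.0421) were called. Aqp4 had 20.8, 6.29, 22 and 8.12 in these libraries, against 1.26 to 19.3 in WT libraries.

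**Figure D3:**
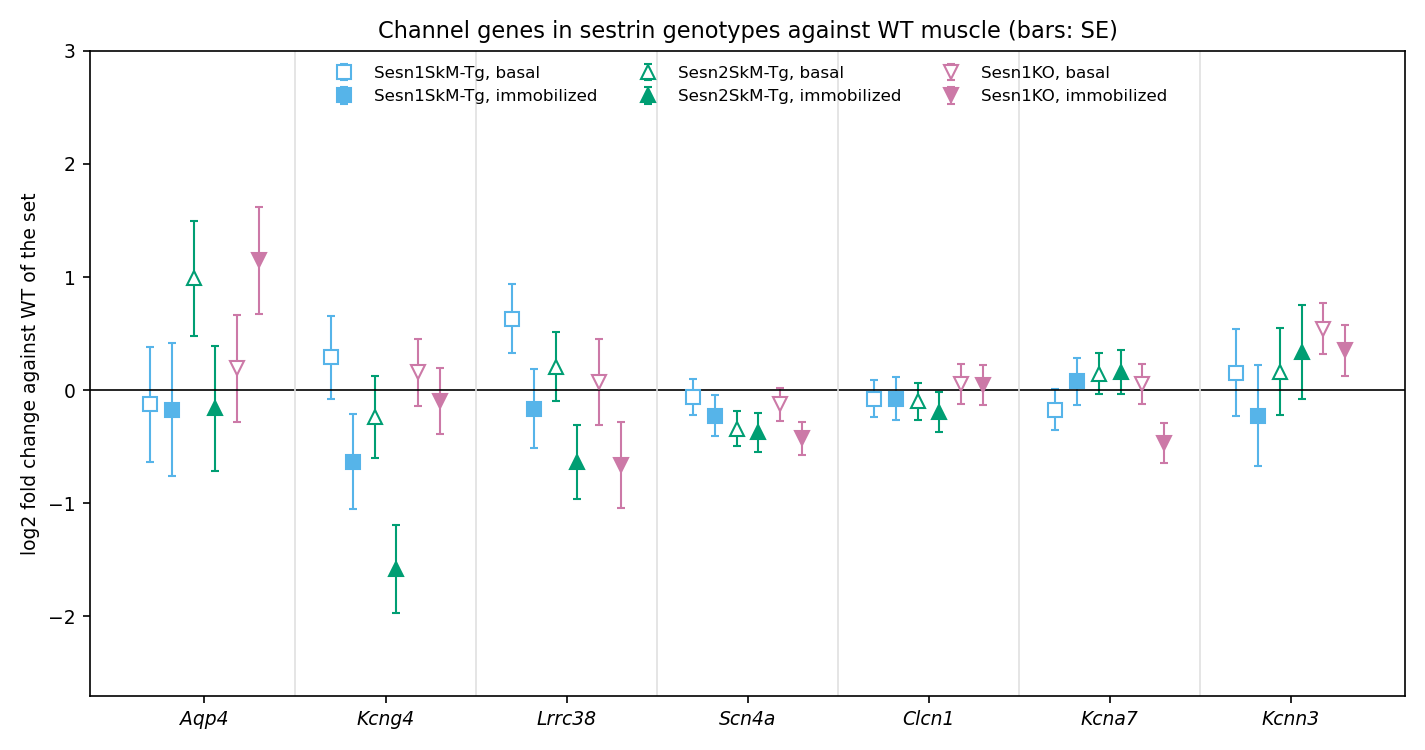
Log2 fold change of each of the 7 channel genes against WT muscle with the same treatment in the same set (vertical axis), open symbols for basal and filled symbols for immobilized muscle, with bars of 1 SE. The point furthest from 0 is Kcng4 in immobilized Sesn2SkM-Tg muscle, at -1.58.

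The difference of the immobilization effect between each genotype and WT was tested for Scn4a, Clcn1, Kcna7 and Kcnn3. None was called in Sesn1SkM-Tg (0% of all genes called by limma, 401 at an unadjusted p under 0.05), Sesn2SkM-Tg (0.0073%) or Sesn1KO muscle (0.022%). At an unadjusted p under 0.05 stood 1 of these 12 values, Kcna7 in Sesn1KO muscle (-0.53, SE 0.25, adjusted p = 0.614). The differences of Aqp4, Kcng4 and Lrrc38, given as a description, were -0.05, -0.92 and -0.80 in Sesn1SkM-Tg, -1.15, -1.35 and -0.84 in Sesn2SkM-Tg, and 0.96, -0.25 and -0.73 in Sesn1KO muscle.

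Libraries of the same group also varied together. After the mean of each group was taken out, the 15 pairs among the 6 genes other than Kcnn3 had correlations of -0.08 to 0.69 over the 42 libraries (median 0.46), with the highest for Aqp4 and Clcn1. The 6 pairs with Kcnn3 had correlations of -0.47 to 0.03 (median -0.29). In the immobilized Sesn2SkM-Tg libraries, replicates 1 and 3 had the higher values of Aqp4 (12.2 and 21.7), Clcn1 (83.3 and 89.4), Lrrc38 (2.44 and 4.00) and Kcng4 (5.20 and 2.77) and the lower values of Kcnn3 (12.9 and 8.71). Kcna7 went the other way, with 62.3 and 57.7 in replicates 1 and 3 against 66.8 and 72.6 in replicates 2 and 4. Scn4a was mixed (264 and 235 against 227 and 260). These correlations are a description, since the points share libraries and their scaling.

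The genes most like each member over the 42 libraries, by the correlation of log2 values centred within each set among 9018 genes with a mean of at least 5, were Ppapdc3, 2310065F04Rik and Plcd4 for Kcng4 (0.97, 0.97 and 0.96), and Ppapdc3, Fam78a and Slc37a4 for Lrrc38 (0.98, 0.98 and 0.97). For Aqp4 they were Slc15a5, Ddo and Nqo2 (0.93, 0.93 and 0.92), and for Clcn1 Myoz3, Map2k6 and Eml1 (0.97 each). For Kcna7 they were Idh3a, Kbtbd13 and Ldha (0.97, 0.96 and 0.96), for Scn4a Prrc2b, Alkbh5 and Man2a2 (0.94, 0.93 and 0.92), and for Kcnn3 Ampd3, Runx1 and Eif4a1 (0.93, 0.91 and 0.91). Ppapdc3 stood first for both Kcng4 and Lrrc38.

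The changes of the 7 members were set beside a list of 72 other channel, pump and channel anchor genes, of which 54 were tested in set 2 and 56 in set 1. On denervation 27 of the 54 were lower, 10 higher and 17 not called, with a median log2 fold change of -0.42, while of all genes 27.7% were lower and 27.8% higher, with a median of -0.03. By family, 6 of 11 voltage-gated potassium channel subunits, 3 of 5 calcium-activated potassium channel subunits, 4 of 9 chloride and anion channels, 4 of 10 sodium-potassium pump genes and 2 of 2 aquaporins (Aqp1 and Aqp7) were lower, and 2, 0, 1, 2 and 0 were higher. Of the 5 other sodium channel subunits, 2 were lower and 2 higher, and of the 9 inward rectifier, KATP and tandem-pore channels 4 were lower and 3 higher. The furthest falls were those of Kcnc1, a fast-gating potassium channel (169 to 8.77, log2 fold change -4.12), Ano5 (244 to 30.4, -3.03) and Kcnn2. Among the furthest rises were those of Kcnk5 (0.549 to 6.00, 2.16) and Scn3b (1.45 to 7.01, 1.65). Scn4b, a sodium channel beta subunit, fell by more on the log2 scale (674 to 118, -2.60) than Scn4a itself (-0.59), a difference that was not tested.

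On immobilization of WT muscle, 12 of 56 of these other genes were lower and 8 higher in set 1 (median log2 fold change -0.24, against 0.00 for all genes, of which 14.5% were lower and 14.9% higher), and 17 of 54 lower and 7 higher in set 2 (-0.17 against -0.02, with 17.7% of all genes lower and 16.2% higher). Kcnc1 (-2.13) and the pump subunits Atp1b4 (-1.59) and Atp1b2 (-1.55) fell furthest in set 1, and Atp1b2 (-1.99), Kcnn2 (-1.70) and Scn4b (-1.46) in set 2. Scn3b (1.75), Fxyd5 (1.64) and Kcnab2 (1.26) rose furthest in set 1, and Scn3b (1.09) and Ank3 (0.81) were among those that rose furthest in set 2. Kcnma1, the pore subunit that Lrrc38 joins, was lower in set 1 (-1.29, adjusted p = 0.00462) and set 2 (-0.93, adjusted p = 0.000925). It was picked for its known role after its values had been seen.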

How the data were processed

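RNAseq libraries were prepared and processed by the authors. Per the labels' tool list and the methods of the study, reads were trimmed with cutadapt 1.7.1 and assigned to the GRCm38 transcriptome with RSEM 1.2.20. The deposited signal is the authors' normalized count per gene, with the lowest value at 0.00476 and none at 0. How the sets were adjusted to each other is not given in the sources used here, so comparisons were made within a set, except for 1 test of the WT immobilization effect between the sets and 1 alternative with both sets in the same fit. Values were taken as log2(value + 1), genes that reached 1 in any library of a set were fitted (13705 in set 1, 13629 in set 2), and all groups of a set were fitted together with limma 3.58.1 (eBayes with trend, R 4.3.3), with Benjamini-Hochberg adjustment over all genes. The code was tested on simulated data. The members and lists were chosen with earlier results of these data known. The genes named were the 7 members, the 3 other channel genes called with the largest fold change in each direction in WT muscle, and the 3 genes most correlated with each member, with exceptions stated where they occur. Kcnn1 and Scn4b on denervation were also named after their values were seen. Some genes that these rules name are not reported here. Promoter windows were read from RefSeq for 6 of the 7 members, with motifs searched on both strands. Gene positions and exon lengths are from GENCODE annotation of GRCm38. Alternatives were other pseudocounts, filters, scalings and fits, a replicate block, and each library left out.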

Additional observations from a re-analysis of the deposited data

Results flagged for a closer look

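In each group of 4 libraries the highest and lowest value of each member was compared with its neighbour, relative to the range of the group, and 4 of 63 gene and group pairs held a library that stood apart, where chance gives about 1 in 20. Kcng4 in immobilized Sesn1KO replicate 3 was 21.4, against 7.04 to 8.19 in the other libraries of the group. Lrrc38 in basal Sesn1KO replicate 3 was 33.4, against 54.1 to 54.7. Clcn1 in basal WT replicate 3 of set 1 was 182, against 223 to 229. Kcnn3 in immobilized WT replicate 4 of set 2 was 5.43, against 7.10 to 7.44.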

How the results depend on the processing

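Depth is unknown for these values and the groups hold 3 or 4 libraries, so the smaller differences between genotypes were not detectable with certainty. Of 2240 alternative values of the members, 2145 kept their direction and their side of the threshold, or, for described values, moved by less than the spread between replicates. Clcn1, Kcna7 and Kcnn3 stayed called on denervation in every fit, and Scn4a in every fit other than that with libraries rescaled to a common sum. Described log2 fold changes of Aqp4, Kcng4 and Lrrc38 kept their sign on immobilization in every fit, and those of Lrrc38 on immobilization of Sesn1KO muscle ran to -4.40 with a pseudocount of 0.1 and to -2.86 with a pseudocount of 5. On denervation the log2 fold change over the alternatives ran from -5.05 to -3.00 for Lrrc38 and from 2.94 to 4.58 for Kcnn3.

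None of the 4 members tested passed the thresholds in immobilized Sesn2SkM-Tg against WT muscle in any fit. The described log2 fold change of Kcng4 in that comparison ran from -1.88 to -0.96 over the alternatives. In immobilized Sesn1KO against WT muscle 0 of the 4 passed, and 0 to 2 when a library was left out. Of the 56 other channel genes tested in set 1, 3 were called in basal Sesn2SkM-Tg against WT muscle, where 2.5% of all genes were (1 with only the compared groups, 6 with both sets in 1 fit, 1 to 5 without a library). In immobilized Sesn2SkM-Tg against WT muscle 4 were called, where 2.94% of all genes were (1 with only the compared groups, 0 to 3 without a library). In set 2, 1 was called in immobilized Sesn1KO against WT muscle, where 0.947% of all genes were (0 with only the compared groups, 0 with both sets in 1 fit, 0 to 5 without a library). On immobilization of Sesn1SkM-Tg muscle 28 of 56 were called, where 34.7% of all genes were, and 17 to 26 without a library. The cause was not tested.

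In 23 gene and comparison pairs a value of the members changed sign under some alternative. That count leaves out the immobilization values and differences of Aqp4, Kcng4 and Lrrc38. The main values of the 23 pairs ran from -0.38 to 0.25, and none of the 64 values that changed sign was called in either fit. With a pseudocount of 5 these were Aqp4 in immobilized Sesn2SkM-Tg against WT muscle (0.037), and the differences of the immobilization effect of Clcn1 in Sesn1SkM-Tg (0.0018) and Kcnn3 in Sesn1KO muscle (0.0073). With libraries rescaled they were Scn4a in denervated against immobilized muscle (0.026) and in basal Sesn1SkM-Tg muscle (0.013), Clcn1 in immobilized Sesn1KO muscle (-0.0014), and the difference for Kcna7 in Sesn2SkM-Tg muscle (-0.011). With median centring it was the difference for Clcn1 in Sesn1KO muscle (0.0036). Without a library, the ranges that crossed 0 were, for Aqp4, -0.37 to 0.039 in basal Sesn1SkM-Tg, -0.54 to 0.26 in immobilized Sesn1SkM-Tg, -0.74 to 0.38 in immobilized Sesn2SkM-Tg against WT, and -0.75 to 0.30 in denervated against immobilized muscle. For Kcng4 the range was -0.45 to 0.18 in immobilized Sesn1KO, and for Lrrc38 -0.46 to 0.19 in immobilized Sesn1SkM-Tg muscle. For Clcn1 the ranges were -0.27 to 0.17 in immobilized Sesn1SkM-Tg and -0.11 to 0.19 in immobilized Sesn1KO, and for Kcna7 -0.21 to 0.23 in immobilized Sesn1SkM-Tg muscle. For Kcnn3 they were -0.23 to 0.37 in basal and -0.42 to 0.0066 in immobilized Sesn1SkM-Tg, and -0.22 to 0.48 in basal Sesn2SkM-Tg muscle. The described differences of the immobilization effect that crossed 0 were those of Aqp4 in Sesn1SkM-Tg (-0.41 to 0.38) and Kcng4 in Sesn1KO muscle (-0.60 to 0.022). Differences of the immobilization effect ran from -0.19 to 0.24 for Clcn1, -0.035 to 0.41 for Kcna7 and -0.59 to 0.00093 for Kcnn3 in Sesn1SkM-Tg, from -0.19 to 0.13 for Scn4a, -0.21 to 0.0050 for Clcn1, -0.10 to 0.15 for Kcna7 and -0.14 to 0.56 for Kcnn3 in Sesn2SkM-Tg, and from -0.17 to 0.13 for Clcn1 and -0.42 to 0.058 for Kcnn3 in Sesn1KO muscle.

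The labels do not say whether the replicate numbers pair the samples. The correlation of same-numbered libraries ran from -0.45 to 0.53, and no comparison had every pair over 0.1. Every pair was above 0 on immobilization of Sesn1SkM-Tg (0.076 to 0.15) and Sesn2SkM-Tg muscle (0.021 to 0.13). With 3 or 4 libraries a group, these correlations cannot settle whether samples were paired. With the replicate block no member tested changed its side of the thresholds in any comparison, and the difference for Kcna7 in Sesn2SkM-Tg muscle changed sign (-0.053). The comparison of the immobilization effect between the sets was chosen after seeing the data.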
